A study of Schizosaccharomyces pombe with 4 samples.

Results

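The genes described here encode the machinery that recognises meiotic mRNA in fission yeast (Schizosaccharomyces pombe) and polyadenylates, degrades or exports it. They were taken by name: 7 genes were listed (mmi1, erh1, red1, pab2, pla1, rrp6 and crp79), and a gene was measured where the platform's probe annotation gave a probe set under its current or older name. This found 6 genes with 1 probe set each, of 2899 genes with a single symbol and 4999 probe sets in the table. The gene erh1, whose small protein forms a complex with Mmi1, had no probe set under its name and was not analysed here. Each value is a log2 RMA value, a background-corrected and between-array equalised summary of the probes of a set.

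The samples were diploid h+/h- cells harvested 3 h and 1.5 h after nitrogen withdrawal, which induces meiosis. The pht1 deletion cells lacked both copies of pht1, which encodes the histone variant H2A.Z, replaced by ura4+ (pht1D::ura4+), and were homozygous for ura4-D18. The wild-type cells carried neither change. Both genotypes shared ade6-210/216 and were heterozygous for his5-303 and leu1-32. Each of the 4 combinations of genotype and time was 1 array of poly(A) RNA, so no group had a replicate. The labels leave it unstated whether the 3 h and 1.5 h samples were drawn from the same culture.

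During vegetative growth, Mmi1, an RNA-binding protein with a YTH domain, binds meiotic transcripts that are made too early. Red1, Pab2 and Pla1 act with it, and the nuclear exosome with its exonuclease Rrp6 degrades the bound RNA. When meiosis starts, the RNA-binding protein Mei2 and a non-coding RNA hold Mmi1 in a nuclear dot, and the meiotic mRNAs accumulate. Crp79, also called Meu5, works on the other side of this decision: it is an RNA-binding protein linked to mRNA export and to the stability of mRNAs of middle meiosis.

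The pht1 probe set read 7.36 at 3 h and 7.37 at 1.5 h in the deletion, against 12.86 and 12.70 in wild type. This places the deletion arrays with their labels. A value under 8.37, which is 1 log2 unit above the mean of the deleted pht1, was treated as a low level, so that a difference measured against it is a lower bound. A floor was set at the 25th percentile of each array, between 10.08 and 10.13. In bulk RNA, fewer cells of a stage and less RNA per cell cannot be told apart.

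Recognition came first in the order of the pathway. The mmi1 probe set (1775159_at) read 9.06 at 3 h and 9.18 at 1.5 h in the deletion, against 9.31 at 3 h and 9.27 at 1.5 h in wild type. Both deletion arrays lay below both wild-type arrays, and all 4 values lay above the low level but below the floor. The deletion minus wild type was -0.25 at 3 h and -0.09 at 1.5 h, where the spread of a difference among the 300 probe sets of nearest intensity was 0.17. Of all probe sets above the floor, 27.9% differed by at least as much as mmi1 at 3 h and 69.8% at 1.5 h. From 1.5 h to 3 h, mmi1 differed by -0.13 in the deletion and by 0.04 in wild type, both within that spread.

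The red1 transcript encodes a zinc-finger protein that joins Mmi1 to the exosome and its helicase. Its probe set (1779592_at) read 11.37 at 3 h and 11.29 at 1.5 h in the deletion, against 11.23 at 3 h and 11.03 at 1.5 h in wild type. The deletion arrays were the higher pair, and the gap of 0.07 between the deletion at 1.5 h and wild type at 3 h was smaller than the spread of 0.16 at this intensity. The genotype difference was 0.14 at 3 h and 0.26 at 1.5 h, sizes reached by 49.7% and 34.2% of probe sets above the floor. The largest gap between neighbours, 0.20, separated the wild-type array at 1.5 h from the other 3 arrays.

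For pab2, which encodes the nuclear poly(A)-binding protein, the probe set (1771096_at) read 12.46 at 3 h and 12.65 at 1.5 h in the deletion, against 12.44 at 3 h and 12.69 at 1.5 h in wild type. Here the arrays were ordered by time and not by genotype: both 3 h arrays lay below both 1.5 h arrays. The 3 h minus 1.5 h difference was -0.19 in the deletion and -0.26 in wild type, against a spread of 0.12. Time differences at least as large were found in 36.3% of probe sets above the floor in the deletion and in 30.8% in wild type. The genotype difference was 0.02 at 3 h and -0.05 at 1.5 h, and 90.0% and 84.4% of probe sets above the floor differed by at least as much.

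The pla1 gene encodes the canonical poly(A) polymerase, whose tails mark the retained transcripts for decay. Its probe set (1771060_at) read 11.79 at 3 h and 11.63 at 1.5 h in the deletion, against 11.58 at 3 h and 11.47 at 1.5 h in wild type. The deletion arrays were again the higher pair, by 0.22 at 3 h and 0.16 at 1.5 h, with a spread of 0.14 at this intensity. The gap of 0.05 between the deletion at 1.5 h and wild type at 3 h was within it, and 33.2% of probe sets above the floor differed by at least as much as pla1 at 3 h and 51.7% at 1.5 h.

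Degradation is represented by rrp6, whose probe set (1778853_at) read 9.86 at 3 h and 9.83 at 1.5 h in the deletion, against 9.59 at 3 h and 9.68 at 1.5 h in wild type. The deletion minus wild type was 0.27 at 3 h and 0.15 at 1.5 h, and no gap between neighbouring arrays exceeded the spread of 0.19. Differences at least as large were found in 26.0% of all probe sets above the floor at 3 h and in 53.6% at 1.5 h. All 4 values lay below the floor. The 3 h minus 1.5 h difference was 0.03 in the deletion and -0.09 in wild type.

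The exception among the measured genes was crp79. Its probe set (1777727_at) read 10.83 at 3 h and 9.08 at 1.5 h in the deletion, against 8.20 at 3 h and 7.46 at 1.5 h in wild type. The order was deletion at 3 h, deletion at 1.5 h, wild type at 3 h, wild type at 1.5 h, and each of the 3 gaps, 1.75, 0.89 and 0.73, exceeded the spread of 0.16. Both wild-type values lay under the low level, the one at 1.5 h close to that of the deleted pht1. The genotype differences of 2.64 at 3 h and 1.62 at 1.5 h are therefore lower bounds, at least 6.22-fold and at least 3.07-fold higher in the deletion. The deletion at 1.5 h was 0.89 above wild type at 3 h.

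**Figure D1:**
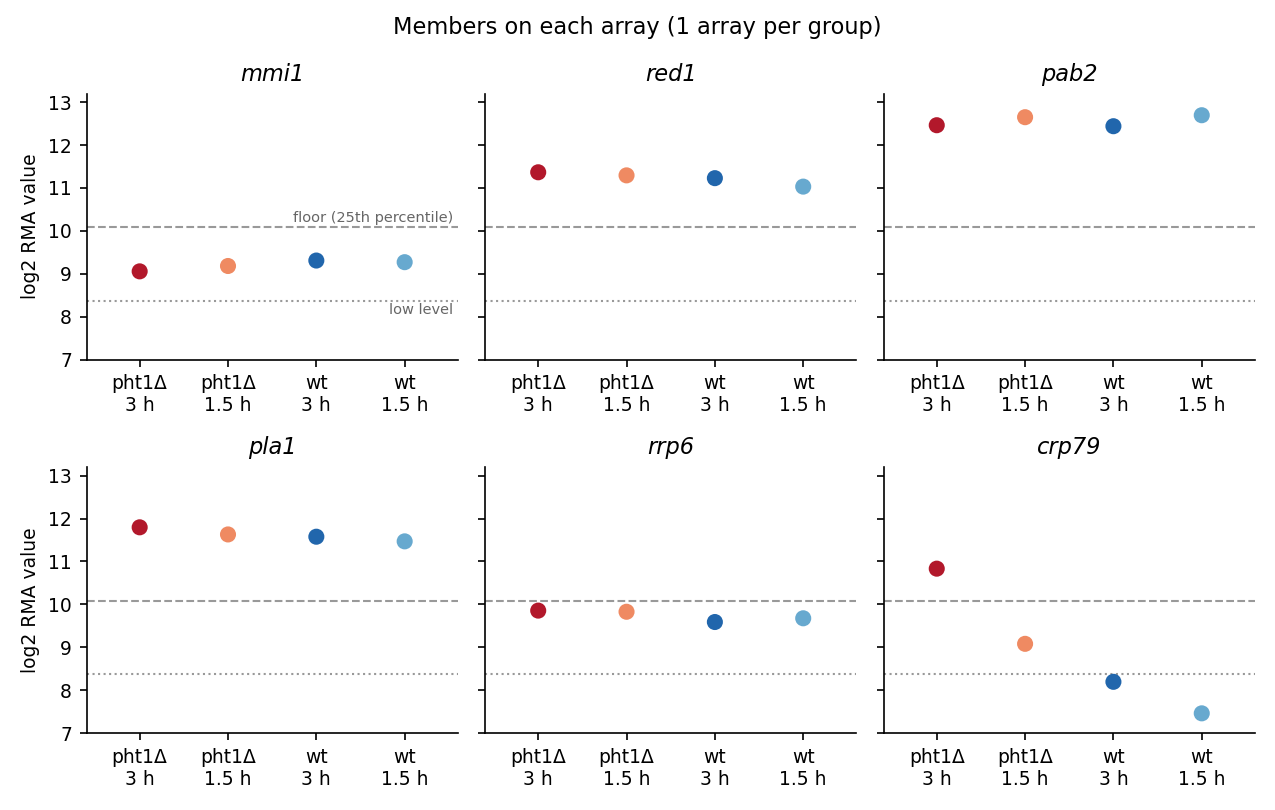
Log2 RMA value (vertical axis) of each measured gene on the 4 arrays, 1 point per array, with the floor dashed and the low level dotted. The arrays of mmi1, red1, pab2, pla1 and rrp6 span at most 0.33 log2 units, while crp79 spans 3.37, with only the deletion at 3 h above the floor.

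The other 5 genes differed between the genotypes by -0.25 to 0.27 at 3 h and by -0.09 to 0.26 at 1.5 h. Of these 5, 4 were higher in the deletion at 3 h and 3 at 1.5 h, beside 46% and 44.6% of all probe sets. Differences as large as the largest of the 5 were found in 26.0% of all probe sets above the floor at 3 h and in 34.2% at 1.5 h. Over all probe sets the median difference was -0.015 at 3 h and -0.027 at 1.5 h. None of the 5 came near a 2-fold difference in any comparison, and their 3 h minus 1.5 h differences lay between -0.19 and 0.17 in the deletion and between -0.26 and 0.20 in wild type.

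A 2-fold difference (1 log2 unit) was counted where the higher array lay above its floor. At 3 h, 1 of the 4 measured genes that met this (crp79) was at least 2-fold higher in the deletion and 0 were lower, where 1.8% of 3885 probe sets were higher and 0.952% were lower. The gene crp79 met the floor only through its high value in the deletion at 3 h, so this count cannot be weighed against those shares. At 1.5 h none of the 3 eligible genes (red1, pab2 and pla1) was 2-fold apart, where 1.95% of 3900 probe sets were higher and 1.05% were lower. The crp79 value at 1.5 h lay below the floor in both genotypes, and without a floor it also counted, beside 2.18% of 4999 probe sets. With 1 array a group, no p-value can be attached to these single differences.

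**Figure D2:**
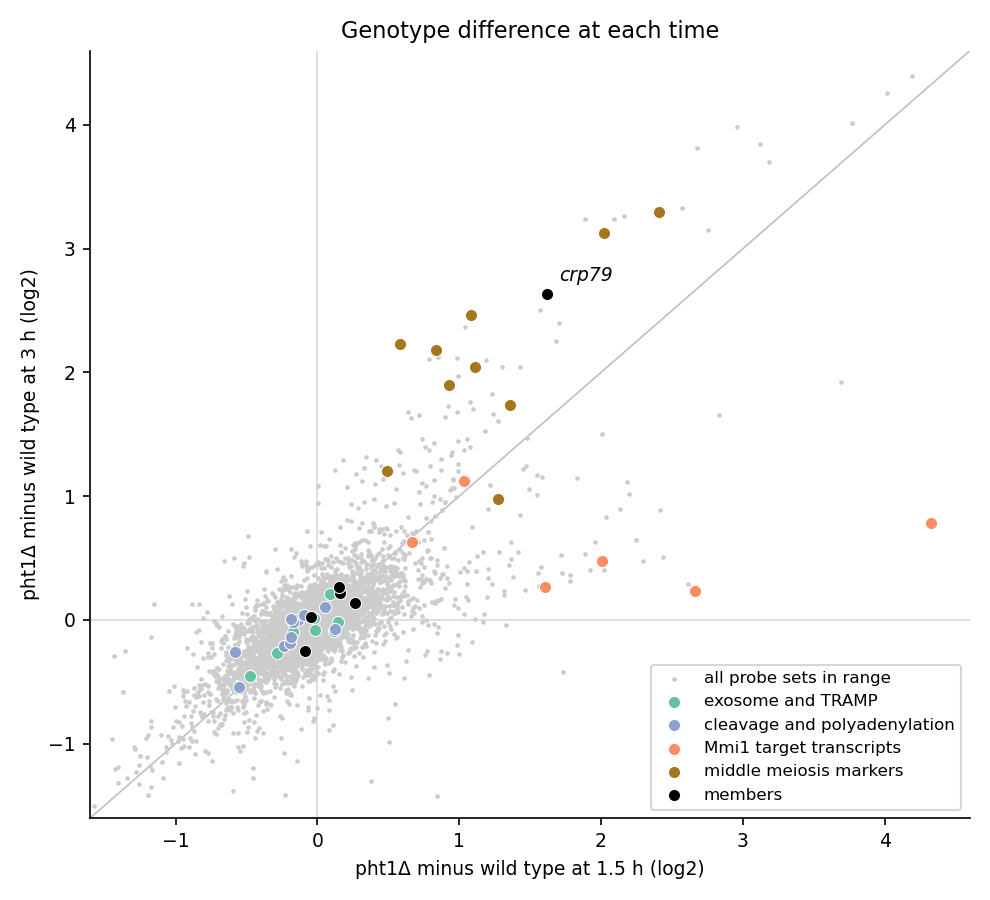
Deletion minus wild type at 3 h (vertical axis) and at 1.5 h (horizontal axis) in log2 units, with 1 point per probe set, the grey diagonal marking equal differences, and points outside the axes not drawn. Of the measured genes (black), 5 lie within 0.27 of 0 on both axes, and crp79 lies at 2.64 at 3 h and 1.62 at 1.5 h, both lower bounds, in the range of the middle meiosis markers.

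Both times then entered a single limma fit, with genotype and time as additive terms and Benjamini-Hochberg adjustment over all probe sets tested. Only 1 residual degree of freedom is left per probe set. The p-values therefore rest on how far these 4 arrays depart from additivity and on a variance pooled over probe sets. With no replicate of any group, they give no measure of the variation between cultures. Of 3851 probe sets that passed the floor on 2 or more arrays, 4.83% were called for genotype at an adjusted p of 0.05 and 28.3% had an unadjusted p under 0.05. The 3 measured genes in this fit were not called. The genotype term was 0.20 ± 0.084 (SE) for red1 (limma adjusted p = 0.215), 0.19 ± 0.078 for pla1 (limma adjusted p = 0.210) and -0.011 ± 0.074 for pab2 (limma adjusted p = 0.933). None of the 3 had an unadjusted p under 0.05 for genotype.

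The 95% intervals of these terms show what size of difference the arrays leave possible. They ran from -0.03 to 0.43 for red1, from -0.03 to 0.41 for pla1 and from -0.21 to 0.19 for pab2. A fit on all 4999 probe sets without the floor, which called 4.64% for genotype, also held the dim genes. There the interval was -0.43 to 0.08 for mmi1 (limma adjusted p = 0.296) and -0.06 to 0.48 for rrp6 (limma adjusted p = 0.247). Each of these 5 intervals lay within a 2-fold difference between the genotypes, as far as the spread between 4 arrays shows. They give no measure of the variation between cultures, and mmi1 and rrp6 lay below the floor on all 4 arrays. A larger difference is therefore not excluded.

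In the fit without the floor, crp79 was called higher in the deletion (limma adjusted p = 0.0448), and it was higher at both times. Its fitted term was 2.13 ± 0.27 (SE), which takes the wild-type values under the low level as read, so no upper limit follows from it. The call was lost when that fit used 1 prior variance for all intensities, an alternative chosen after seeing the data (limma adjusted p = 0.0641). It was the only measured gene called in either fit. For time, 1.61% of the 3851 probe sets and 0 of the 4999 without the floor were called by limma, with 22.5% of the latter at an unadjusted p under 0.05, and no measured gene was called. The time term was -0.22 ± 0.074 for pab2 (limma adjusted p = 0.186), which alone among the 3 genes above the floor had an unadjusted p under 0.05. So did 24.2% of the 3851 probe sets in that fit. Without the floor the time term was 1.24 ± 0.27 for crp79 (limma adjusted p = 0.126), from the same low wild-type values.

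The partners of these proteins were read from lists of the exosome with its TRAMP cofactor, the CCR4-NOT deadenylase, the cleavage and polyadenylation factors and the export and poly(A)-binding proteins. Of 51 listed genes in these 4 lists, 34 were measured, and none was 2-fold apart in any of the 4 two-array comparisons. At 3 h, 23 of the 34 were lower in the deletion and 11 higher, with a median of -0.07. Of all probe sets, 54% were lower at 3 h, with a median of -0.015. At 1.5 h, 25 of the 34 were lower and 9 higher, with a median of -0.10, where 55.4% of all probe sets were lower, with a median of -0.027. In limma's additive fit, 1 of the 30 tested was called lower and 0 were called higher, beside the 4.83% called in either direction over all probe sets, which is a share of like size. The listed partners of Red1, namely iss10, mtl1, red5, rmn1, pir2, cbc1 and cbc2, had no probe set under their names and were not analysed here.

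The called gene was pta1, a subunit of the cleavage and polyadenylation factor. It read 11.18 at 3 h and 11.52 at 1.5 h in the deletion, against 11.73 at 3 h and 12.08 at 1.5 h in wild type. The deletion minus wild type was -0.545 at 3 h and -0.555 at 1.5 h, so the deletion was the lower genotype at each time. The additive term was -0.55 ± 0.077 (limma adjusted p = 0.0464), and the adjusted p ranged from 0.0345 to 0.0632 over the alternatives, so this call rests on the settings. In the same list, 8 of 11 measured genes were lower at 3 h and 9 at 1.5 h, beside 54% and 55.4% of all probe sets. Among the lower genes was cft2 (-0.26 and -0.58), which encodes another subunit. Highest by its mean in this list was yth1 (0.11 and 0.05).

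Among 8 measured genes of the exosome and TRAMP, the RNA-binding TRAMP subunit gene air1 was at -0.46 at 3 h and -0.47 at 1.5 h (limma adjusted p = 0.0623). The helicase gene mtr4 was at -0.27 and -0.29, and dis3, the catalytic exosome subunit, at 0.01 and -0.02. The highest by its mean was rrp41, at 0.21 and 0.09. The list medians were -0.08 at 3 h and -0.02 at 1.5 h. In CCR4-NOT, caf1, the deadenylase that trims poly(A) tails, had the lowest mean of both times (-0.22 at 3 h and -0.31 at 1.5 h) and not2 the highest (0.17 and 0.22), over 7 genes with medians of -0.01 and -0.08. For export and poly(A) binding, with medians of -0.06 and -0.06 over 8 genes, the lowest by its mean of both times was sus1 (-0.42 at 3 h and -0.01 at 1.5 h) and the highest dss1 (0.23 and 0.25). The export receptor gene mex67 was at -0.07 and -0.11, and pabp, the cytoplasmic poly(A)-binding protein gene, at 0.07 and -0.02. None of these genes was called by limma for genotype.

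**Figure D3:**
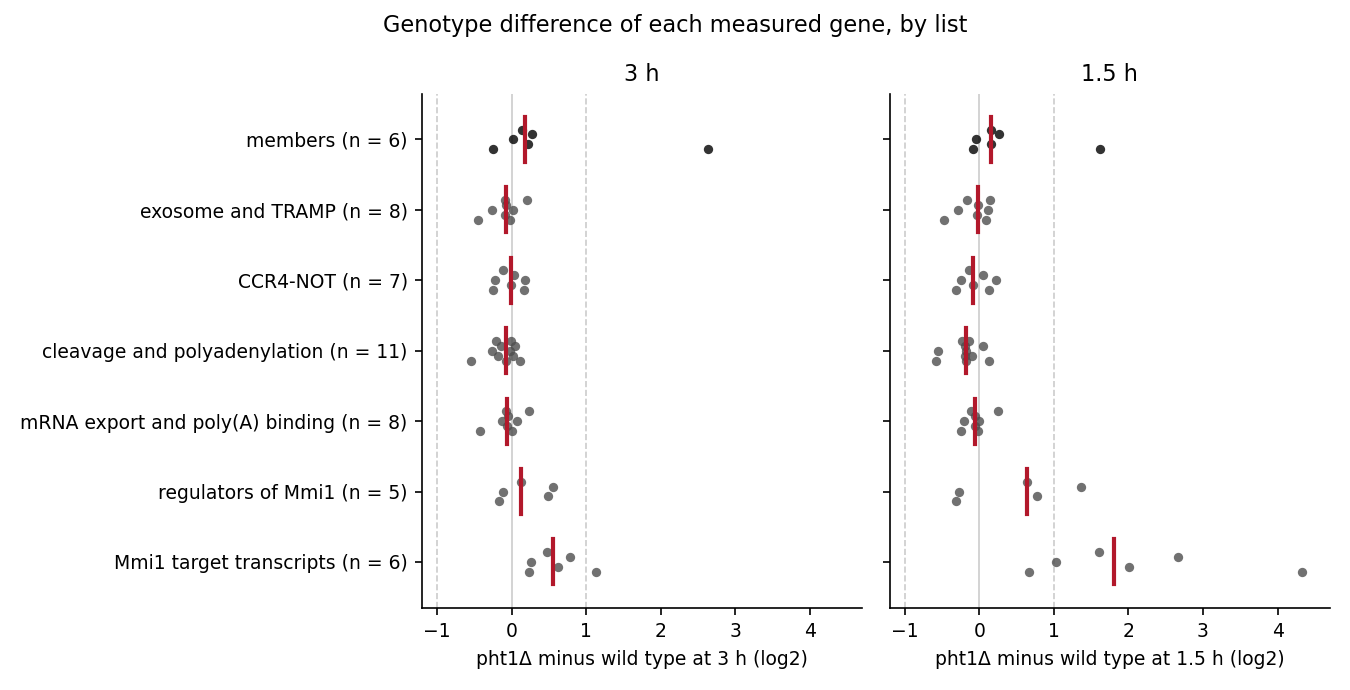
Deletion minus wild type (log2 units) of each measured gene at 3 h (left panel) and 1.5 h (right panel), with 1 point per gene, a red bar at each list's median and dashed lines at a 2-fold difference. The 4 lists of RNA processing partners lie between -0.58 and 0.25, whereas all 6 target transcripts lie above 0 at both times.

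Transcripts known as targets of Mmi1 were read on the same arrays. All 6 measured targets were higher in the deletion at both times, with a median of 0.55 at 3 h and 1.80 at 1.5 h, where 46.0% and 44.6% of all probe sets were higher. At 1.5 h, the meiotic RNA-binding protein gene spo5 was higher by 4.33, the meiotic cyclin gene crs1 by 2.66, and rec8, the meiotic cohesin subunit gene, by 1.60. At 3 h the same 3 were higher by 0.78, 0.23 and 0.26. The cortical dynein anchor gene num1 was higher by 0.47 at 3 h and by at least 2.005 at 1.5 h, since its wild-type value at 1.5 h lay under the low level.

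For the remaining targets the difference at 1.5 h is a lower bound, so whether it was alike at both times is not settled. The forkhead transcription factor gene mei4 was higher by 1.13 at 3 h and at least 1.03 at 1.5 h. The dynactin-related gene ssm4 was higher by 0.63 at 3 h and at least 0.67 at 1.5 h. Without the floor, mei4 (limma adjusted p = 0.0336) and ssm4 (limma adjusted p = 0.0400) were called for genotype, and the call for ssm4 was lost with 1 prior variance (limma adjusted p = 0.0549). With the floor, limma called none of the 4 targets tested (lowest adjusted p = 0.144), a fit in which a difference that varies with time counts as residual.

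Of the genes that act on Mmi1, mei2, which encodes its antagonist, was higher in the deletion by 0.13 at 3 h and 0.64 at 1.5 h (limma adjusted p = 0.164). The gene of the Pat1 kinase, which holds Mei2 inactive, was at 0.49 and 1.37 (limma adjusted p = 0.0974). The Pat1 inhibitor gene mei3 was at 0.56 and at least 0.77, below the floor on every array. In the fit without the floor, mei3 was called for genotype (limma adjusted p = 0.0462), beside 4.64% of 4999 probe sets. The lower pair were mip1 (-0.11 and -0.31) and tor2 (-0.17 and -0.27), which encode a Raptor homologue and a TOR kinase of the complex that restrains Mei2. The non-coding RNA gene sme2 was not analysed here. These 5 genes had medians of 0.13 (3 h) and 0.64 (1.5 h).

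Markers of meiotic stage were read next. Over all probe sets, 46% were higher in the deletion at 3 h and 44.6% at 1.5 h. All 10 markers of middle meiosis were higher in the deletion at both times, with a median of 2.11 at 3 h and 1.10 at 1.5 h. Their median level was 10.73 at 3 h and 9.20 at 1.5 h in the deletion, against 8.32 and 7.92 in wild type, where 5 and 7 of them lay under the low level. All 7 early markers were higher at both times, with a median of 0.35 at 3 h and 1.31 at 1.5 h, and levels of 11.38 and 9.84 in the deletion against 11.18 and 8.67 in wild type. Of 9 late and spore wall markers, 7 were higher at 3 h and 9 at 1.5 h, with medians of 1.19 and 0.80. The part of stage in the crp79 and target differences was not tested.

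The pattern of crp79 over the 4 arrays was set beside that of 2314 genes whose probe set passed the floor on 2 or more arrays, each centred on its own mean. The nearest by Euclidean distance were mug110 (0.55 log2 units), spn7 (0.70), gal10 (0.87), meu25 (0.89) and meu14 (0.94), where the median gene lay at 2.54. The septin gene spn7 and meu14, whose protein sits at the edge of the forespore membrane, are also among the middle meiosis markers. The gene gal10 encodes an epimerase of galactose use. The wild-type values of crp79, meu25 and meu14 lay under the low level at both times, so these distances and their order are not settled. The nearest gene, mug110, passed the floor through the deletion arrays alone, as did meu25 and meu14. These 5 genes were chosen for nearness to crp79 on these same 4 arrays. That each had both deletion arrays above both wild-type arrays, like crp79, therefore follows largely from the choice.

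The values of these genes show the range of the resemblance. The nearest, mug110, read 12.23 at 3 h and 11.17 at 1.5 h in the deletion, against 9.84 at 3 h and 9.46 at 1.5 h in wild type. The genotype difference of spn7 was 1.73 at 3 h and 1.36 at 1.5 h, and that of meu14 was at least 3.30 and at least 2.41. In limma's additive fit with the floor, the genotype term was 1.55 for spn7 and at least 2.85 for meu14. Both genes were chosen for likeness to crp79 on these same arrays, so these terms are no separate support. The gene mei4 was added by name, since it passed the floor on only 1 array and was not among the genes compared. It lay at a distance of 1.15 from crp79, with its wild-type value at 1.5 h under the low level. A link between the 2 genes was not tested.

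**Figure D4:**
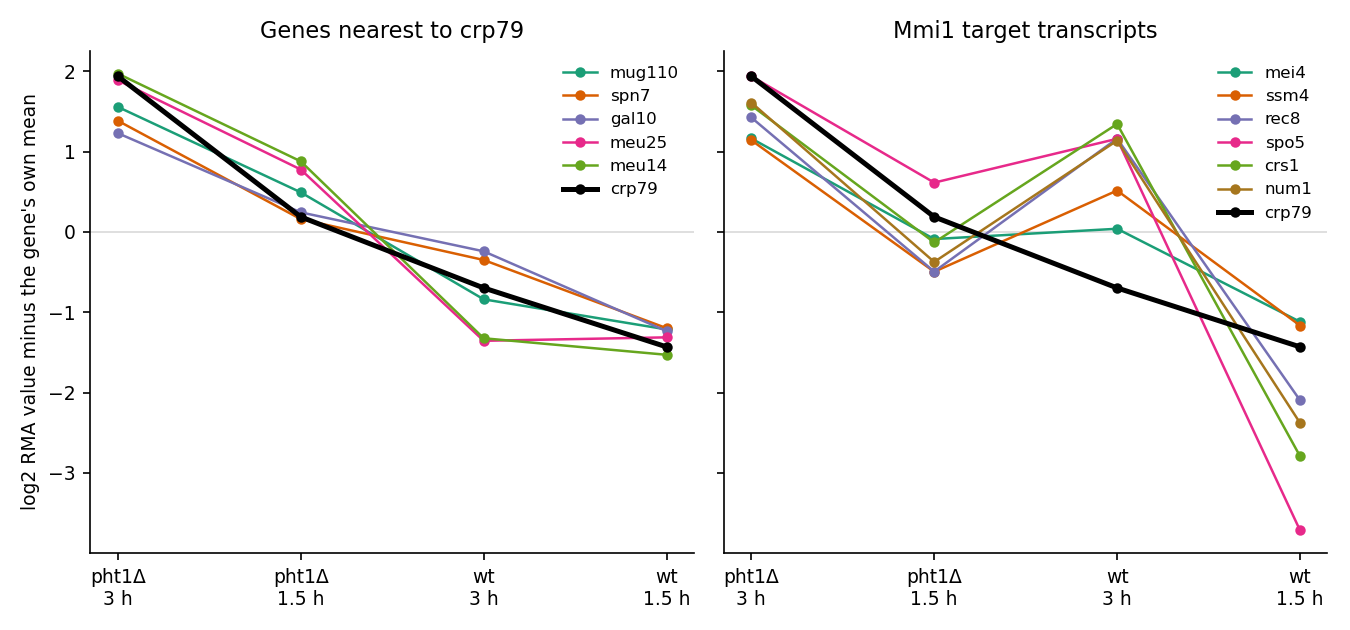
Log2 RMA value minus the gene's own mean (vertical axis) on the 4 arrays for crp79 (black, both panels), its 5 nearest genes (left) and the 6 Mmi1 target transcripts (right); lines join the arrays of a gene. The 5 nearest genes were chosen for their likeness to crp79 on these arrays, so their shared order, deletion above wild type, is no separate result. All 6 targets are higher in wild type at 3 h than in the deletion at 1.5 h.

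The measured genes around crp79 differed less between the genotypes. Of the 10 protein-coding genes within 5 positions on either side, 6 were measured, and their genotype differences lay between -0.13 and 0.23 at 3 h and between -0.43 and 0.50 at 1.5 h. The adjacent mmc1 was at -0.13 and -0.09. On the other side the adjacent mrpl1 had no probe set under its name, and neither had the next genes, saf5 and mrx11. Among the 6 measured, pom34, a nuclear pore gene, was higher at 3 h than at 1.5 h by 1.03 in the deletion and 1.35 in wild type.

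From 1.5 h to 3 h, crp79 was higher by 1.75 (3.37-fold) in the deletion, where both values lay above the low level. Of the 4 eligible measured genes, only crp79 was at least 2-fold higher there, beside 1.63% of 3863 probe sets that were higher and 0.725% that were lower. It was eligible only through its high value in the deletion at 3 h, so this count cannot be weighed against those shares. In wild type the difference was 0.73 between values that both lay under the low level, so its size is not settled, and 0 of 3 eligible genes were 2-fold apart, beside 2.37% of 3878 probe sets that were higher and 0.593% that were lower. The change over time was thus 1.02 larger in the deletion as measured, past 2-fold in 0.45% of 4003 probe sets in this direction and 1.35% in the other. That difference of differences rests on wild-type values at the low level, and crp79 was again eligible only through the deletion at 3 h.

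Among the Mmi1 targets the difference of differences mostly had the opposite sign. Their median 3 h minus 1.5 h difference was 1.67 in the deletion and 3.39 in wild type, and 5 of 6 had the smaller difference in the deletion. In wild type at 1.5 h, 3 of these 6 lay under the low level, so their wild-type changes are lower bounds. For the middle markers the medians were 1.18 in the deletion and 0.22 in wild type, with 9 of 10 larger in the deletion. In wild type, 5 of these 10 at 3 h and 7 at 1.5 h lay under the low level, so their wild-type changes, like that of crp79, are not settled. For the early markers the medians were 1.45 and 2.65, with all 7 smaller in the deletion. At 1.5 h, 3 of these 7 lay under the low level in wild type and 1 in the deletion. For the other 5 measured genes, the difference of differences lay between -0.16 and 0.11, within the spread of each.

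**Figure D5:**
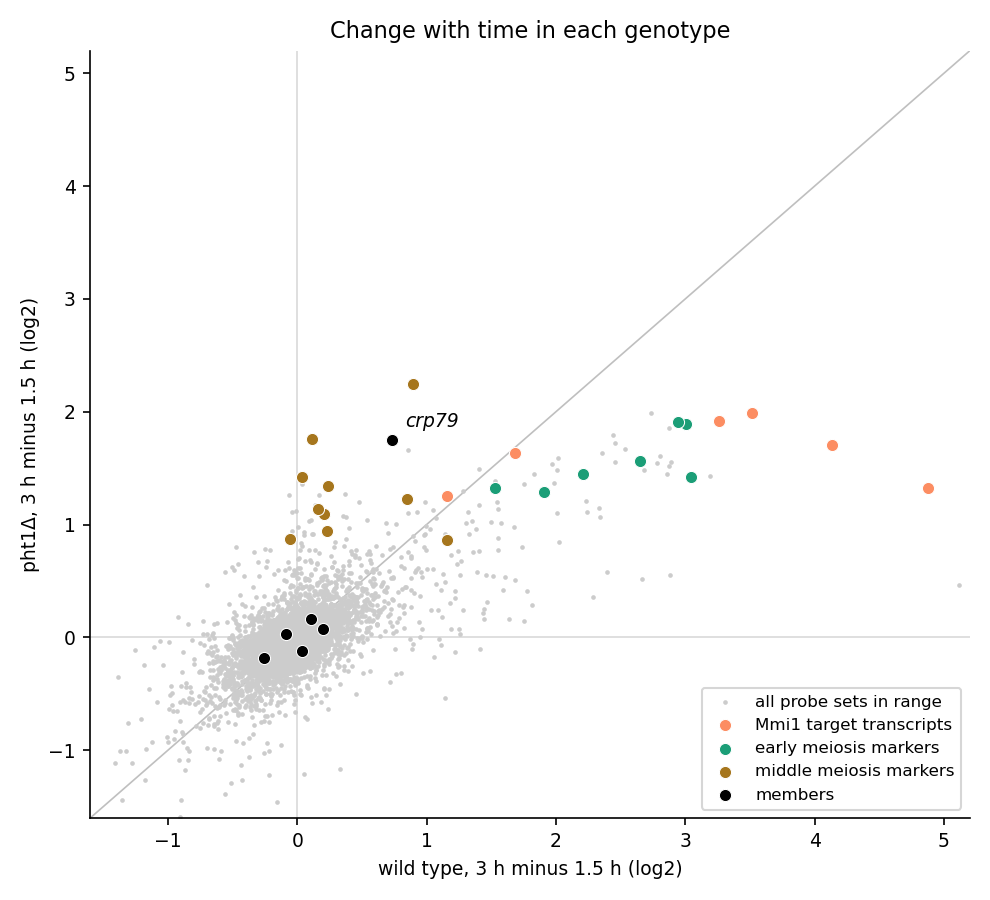
Difference of 3 h minus 1.5 h in the deletion (vertical axis) and in wild type (horizontal axis) in log2 units, with 1 point per probe set, the grey diagonal marking equal differences, and points outside the axes not drawn. Above the diagonal lie crp79 (1.75 in the deletion and 0.73 in wild type) and 9 of 10 middle meiosis markers. Below it lie 5 of 6 Mmi1 targets and all 7 early markers, while the other 5 measured genes sit near 0. Wild-type values of crp79, 7 middle markers, 3 targets and 3 early markers at 1.5 h lay under the low level.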

How the data were processed

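Poly(A) RNA of 4 samples was hybridised as biotin-labelled cRNA to Affymetrix arrays. The deposited table holds log2 values from RMA, per the submitters' processing notes, and neither its version nor the arrays it was run on together is stated there. Because RMA equalises the distributions, a value says how a transcript stood among the others on that array, and a change in total mRNA cannot be seen. Array medians were 11.23 to 11.27. The platform annotation named 2917 of the 4999 probe sets with a single symbol and 20 with more than 1, which left 2062 unnamed here. Symbols were updated by gene identifier through a RefSeq gene table of assembly ASM294v3 (2914 matched), used for names and gene order alone. An older name was used only where no other gene holds it, and the poly(A)-binding protein gene was listed as pabp because pab1 is now another gene.

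Differences are of 1 array and 1 array. The spread of a difference is the scaled median absolute deviation of the difference of differences over the 300 probe sets nearest in mean, divided by the square root of 2, and it was 0.129 over all probe sets above the floor. The additive fit used limma 3.58.1 in R 4.3.3 with a variance trend. It was also run on simulated data with known genotype changes. There the residual spreads were shuffled over probe sets and no genotype difference varied with time. That run therefore does not show how the fit behaves on these data. Python 3.11.15, numpy 2.4.6, pandas 2.3.3 and matplotlib 3.10.9 were used. The number of arrays limits the precision. The genes and lists were chosen with earlier results of these data known. Named genes were all 7 listed, pht1, in each list those 2-fold apart or called (at most 6) with the highest and lowest mean genotype difference, and the 5 genes nearest in pattern to any listed gene that spans at least 1 log2 unit. Contrary to that rule, the stage markers are given as counts and medians, with single genes only where they lie near crp79. Neighbours of crp79 and some partners of known role were added to these. The alternatives tried concern scaling, the floor, the features fitted, the fold threshold and the variance model. Sequences were not used here.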

Additional observations from a re-analysis of the deposited data

Results flagged for a closer look

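Opposite signs in the groups of a contrast were found for 3 of the measured genes, and none of these differences between groups was tested. The 3 h minus 1.5 h difference of mmi1 was -0.125 in the deletion and 0.038 in wild type, with a spread of 0.171 at its intensity. That of rrp6 was 0.027 in the deletion and -0.087 in wild type, with a spread of 0.185. For pab2, the genotype difference was 0.023 at 3 h and -0.046 at 1.5 h, with a spread of 0.120. All of these values lay within the spread of a difference.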

How the results depend on the processing

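Each group held 1 array, so no replicate could be left out. No paired analysis was possible because no group has a replicate, beyond the additive fit, which sets the genotypes against each other within each time. Scaling by quantile normalization or cyclic lowess moved the two-array differences of the measured genes by at most 0.086 log2 units and turned no sign, and the count of genes 2-fold apart in each comparison was the same under both. Of 114 values of single measured genes under alternatives, 112 kept direction and call. The genotype term of pab2 turned to 0.0057 after lowess, and crp79 lost its call without a floor and with 1 prior variance. Without a floor, the count of measured genes 2-fold apart at 1.5 h was 1 (crp79) and the count called for genotype was 1 (crp79). With the floor at the array median, crp79 was not eligible, and the counts at 3 h, over time in the deletion and for the difference of differences were each 0. At a 3-fold threshold the count for the difference of differences was 0. Over all probe sets, limma called 186 for genotype, against 71 with the median floor, 46 among single-symbol probe sets, 94 without a floor and with 1 prior variance, 141 with 1 prior variance, 232 without a floor, 242 after quantile normalization, 255 after lowess and 260 with a robust trend. For time it called 62, against 123 after quantile normalization, 138 after lowess, 110 with a robust trend, and 0 without a floor, with the median floor, among single-symbol probe sets and with 1 prior variance. Each measured gene had 1 probe set, so averaging sets changed nothing. The dim values of mmi1, rrp6 and wild-type crp79 limit what can be read from them.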
